A study of Mus musculus with 11 samples.

Results

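The genes described here make or sense the signals by which endothelium sets vessel tone: *Nos3* and *Ddah2* of the nitric oxide pathway, *Edn1*, *Ece1* and *Ednrb* of the endothelin pathway, *Ptgs1* and *Ptgis* of the prostanoid pathway, and *Adm*, *Calcrl* and *Ramp2* of the adrenomedullin pathway. They were taken by gene name, 10 of the 29307 genes in the count table, and all 10 were among the 12905 genes with enough counts to be tested. RNA came from liver endothelial cells (ECs) of male C57BL/6J mice aged 10 to 12 weeks, with 1 library per mouse and no pooling of mice. The 6 conventionally raised (CONV-R) mice carried a gut microbiota under specific pathogen-free housing, and the 5 germ-free (GF) mice were bred in sterile isolators, with both groups on autoclaved chow. Dissociated livers were enriched for CD146 with magnetic beads and then sorted for cells bearing CD31, CD105 and CD146, and the RNA was amplified before sequencing. The sorted cells had a low viability by the study's own account, and no treatment was given to either group. The study also obtained several-fold fewer sorted cells and, on average, much less RNA from GF than from CONV-R livers. It amplified a set amount of RNA from each. Cell and RNA yield thus differed along with the group, and their part in the differences below was not tested. The comparison asks which of these transcripts differ in liver ECs when no microbiota is present.

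Nitric oxide is made in endothelium by endothelial nitric oxide synthase and relaxes the neighbouring smooth muscle or, in the sinusoid, the stellate cell. Endothelin-1 is cut from its precursor by endothelin-converting enzyme and constricts through the receptor ETA on contractile cells, while the receptor ETB on endothelium clears endothelin-1 and triggers the release of nitric oxide and prostacyclin. Adrenomedullin, a vasodilator peptide, acts through the calcitonin receptor-like receptor once it is joined by the accessory protein RAMP2.

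The promoters of *Ednrb* and *Edn1*, the receptor and the ligand of the endothelin pathway, are shown because *Ednrb* was the member that differed between the groups and *Edn1* varied more between mice of one group than other genes of its level. Both are RefSeq windows (GRCm38.p6) of 300 bases, from 250 before to 50 after the annotated start, in the direction of the gene. The *Ednrb* window lies at chr14:103843652-103843951 on the minus strand and the *Edn1* window at chr13:42301226-42301525 on the plus strand. The *Ednrb* window lies inside the gene's span in GENCODE, which places the outermost start of *Ednrb* further upstream than the RefSeq start used here. Capitals mark every match to a short motif on either strand, a reverse match being shown as its complement. CACCC is bound by KLF factors and ACGTG by hypoxia-inducible factors. TGACTCA is the motif of the factor AP-1. The GATA factors bind AGATAA, and AGAACA is part of the element of the glucocorticoid receptor.
Ednrb: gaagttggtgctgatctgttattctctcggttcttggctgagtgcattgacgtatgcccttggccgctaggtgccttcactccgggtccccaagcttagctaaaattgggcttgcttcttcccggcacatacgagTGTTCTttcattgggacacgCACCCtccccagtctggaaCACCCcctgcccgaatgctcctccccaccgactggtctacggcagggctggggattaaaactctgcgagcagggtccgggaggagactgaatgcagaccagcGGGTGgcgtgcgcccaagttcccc
Edn1: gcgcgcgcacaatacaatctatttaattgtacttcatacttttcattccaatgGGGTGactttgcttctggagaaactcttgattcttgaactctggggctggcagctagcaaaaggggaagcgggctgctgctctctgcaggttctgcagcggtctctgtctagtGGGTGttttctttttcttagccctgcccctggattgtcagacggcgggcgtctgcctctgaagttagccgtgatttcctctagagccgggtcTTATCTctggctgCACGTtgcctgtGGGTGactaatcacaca

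In the *Ednrb* window, whose GC content was 58.67%, CACCC matched at positions -95 to -91, -76 to -72 and, on the reverse strand, 27 to 31, counted from 1 at the start and from -1 just before it. AGAACA matched once there, on the reverse strand, at -115 to -110. The *Edn1* window held 3 reverse matches to CACCC, at -197 to -193, -84 to -80 and 34 to 38, with AGATAA reversed at 9 to 14 and ACGTG reversed at 22 to 26. None of the matches in these windows overlapped another. The table gave 10 windows for 7 of the members, 4 of them for *Ece1*, and held no entry for *Nos3*, *Ptgis* and *Ramp2*. CACCC was in 8 of the 10 windows and in 57.5% of all 32851 windows of this length, AGAACA in 4 against 19.0%, ACGTG in 2 against 19.6%, AGATAA in 1 against 11.2% and TGACTCA in 0 against 5.20%. By gene, CACCC was found for 6 of the 7 members, since *Ece1* holds it in more than 1 window. A pair of these windows overlap and share 1 site. These letters are a description of sequence and carry no measure of binding.

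Library totals ran from 7922855 to 14669352 counts in CONV-R mice and from 7242717 to 16164588 in GF mice. Levels are given as CPM, which are counts divided by the library total after TMM scaling, and Log2FC is the fitted log2 ratio of GF to CONV-R with its standard error (SE). CONV-R replicate 3 stood apart from the other CONV-R libraries, with a median correlation of log2 CPM of 0.952 to them, against 0.971 to 0.978 for the others, while the GF libraries lay between 0.950 and 0.957 within their group. GF replicate 2 had counts for 22674 genes, against 15456 to 18495 in the other libraries. The summed sorting markers (*Pecam1*, *Eng*, *Mcam*) averaged 3474 ± 707 CPM in GF and 2797 ± 535 CPM in CONV-R mice, and the 10 markers of sinusoidal endothelium 36401 ± 4462 CPM and 34563 ± 2370 CPM (SD; n = 5 and 6; adjusted exact permutation p = 0.164 and 0.506 over 10 marker lists). Of the sinusoidal markers, *Cd36* was called higher in GF mice (1561 against 871 CPM, edgeR adjusted p = 0.0005145) and 0 were called lower. Summed Kupffer cell markers were higher in GF mice, at 196 to 929 CPM against 85.8 to 222 CPM (exact permutation p = 0.00866, adjusted p = 0.0361), with 7 of the 10 called higher by edgeR. The call on this sum held without CONV-R replicate 1 or GF replicate 4 or 5 and was lost in the other 8 of 11 runs that left out 1 mouse (exact permutation adjusted p up to 0.132). Summed cholangiocyte markers were also higher in GF mice (21.7 against 3.79 CPM, exact permutation adjusted p = 0.0217) and summed lymphocyte markers lower (5.74 against 11.3 CPM, exact permutation adjusted p = 0.0361). The cholangiocyte call held without each mouse in turn, and the lymphocyte call was lost without GF replicate 1, 2, 5 or 6 (exact permutation adjusted p up to 0.111). *Spp1* alone made 13.2 of the 21.7 CPM of cholangiocyte markers in GF and 2.46 of the 3.79 CPM in CONV-R mice. Of these 5 markers 2 could be tested, and *Spp1* passed (edgeR adjusted p = 0.016) while *Krt19* did not (edgeR adjusted p = 0.0959). The other 5 lists had adjusted p from 0.119 to 0.641. Since the libraries are bulk RNA, fewer cells of one type and less RNA per cell cannot be told apart.

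Of the 10 genes, 1 was called higher in GF mice and 0 lower by edgeR's quasi-likelihood test at an adjusted p of 0.05, beside 7.48% of all tested genes, 4.80% called higher and 2.67% called lower. *Ednrb* was that gene. DESeq2 also called *Ramp2*, making 2 higher and 0 lower, where it called 5.98% of its tested genes higher and 3.85% lower. An unadjusted edgeR p under 0.05 was reached by 5 of the 10, all with a positive Log2FC, and by 23% of all tested genes, 12.5% with a positive Log2FC. The Log2FC was positive for 9 members and negative for *Ddah2*, with a median of 0.40 against -0.01 over all tested genes, of which 49.1% were positive. The plot of Log2FC by gene shows *Ednrb* set apart from the other members, and the heatmap of single mice shows how unevenly the other differences were spread.

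**Figure D1:**
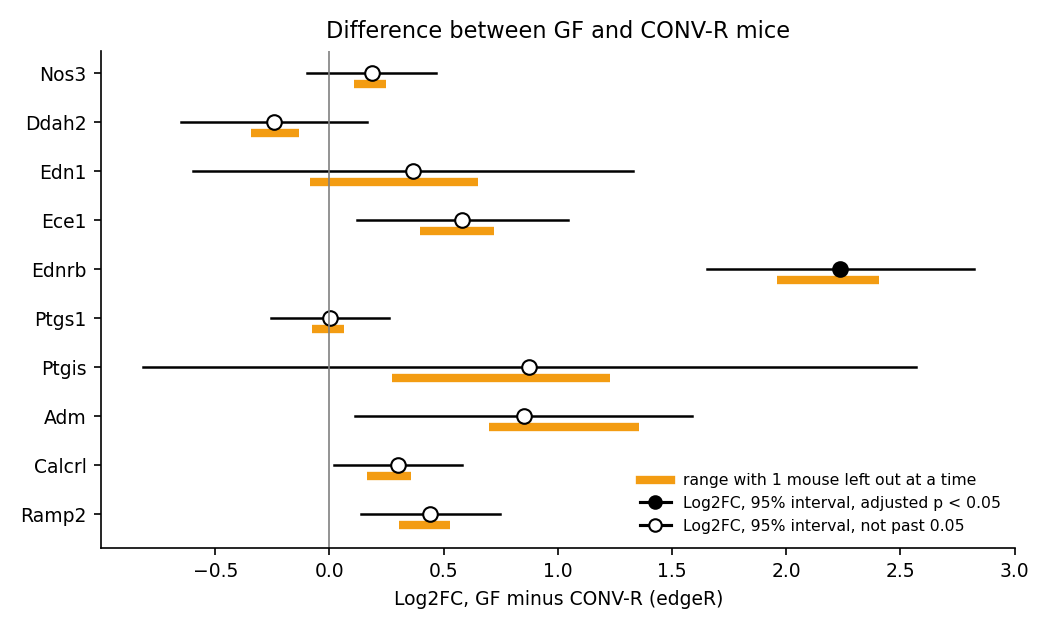
Log2FC of each of the 10 genes (GF over CONV-R, log2 scale) with its approximate 95% interval from edgeR, in order of role. Orange bars give the range with 1 mouse left out at a time, and the filled point passed an adjusted p of 0.05. The interval of *Ednrb* runs from 1.65 to 2.82, and that of *Ptgis*, the least counted gene, from -0.82 to 2.57.

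**Figure D2:**
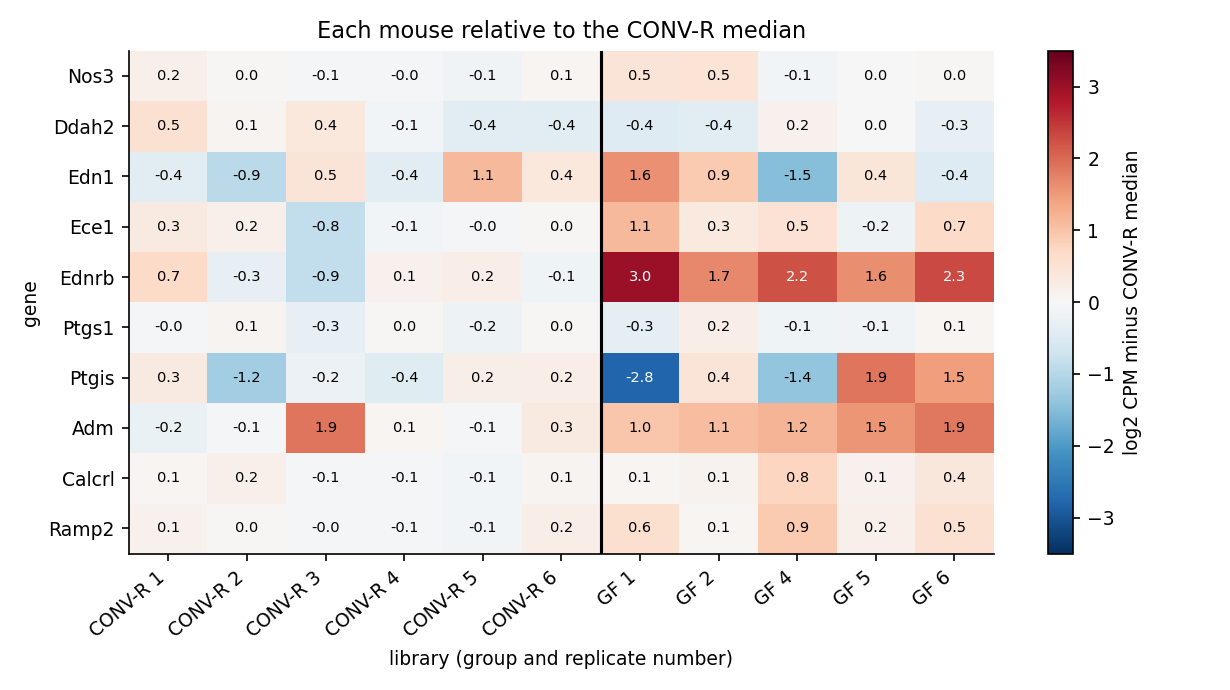
Log2 CPM of each gene in each of the 11 mice, shown as the difference from the CONV-R median of that gene on a log2 scale. *Ednrb* is the gene whose 5 GF mice all lie above the 6 CONV-R mice, and GF replicate 1 holds the highest *Ednrb*, *Ece1* and *Edn1*.

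*Ednrb*, the gene of the ETB receptor (ENSMUSG00000022122, chr14:103814625-103844402, minus strand), rose 4.71-fold in liver ECs of GF mice. It reached 619, 245, 355, 234 and 376 CPM in GF replicates 1, 2, 4, 5 and 6. In CONV-R mice it ran from 41.4 to 121 CPM (median 76.1.) No GF mouse overlapped a CONV-R mouse, and the lowest GF value was 1.94 times the highest CONV-R value, while the groups of 5.59% of all tested genes did not overlap, 3.22% with GF above and 2.37% with GF below. The means were 366 ± 155 CPM (SD, n = 5) and 77.5 ± 26.9 CPM (SD, n = 6), from 20360 and 5837 counts. The Log2FC was 2.24 (SE 0.26, edgeR adjusted p = 4.87e-05), rank 32 of the 12905 tested genes by p and rank 83 of the 620 genes called higher by Log2FC. The exact permutation test on CPM gave p = 0.00216, the smallest that 462 splits of the mice allow for a two-sided test.

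Within each group *Ednrb* still differed between mice by 2.91-fold in CONV-R and 2.65-fold in GF, and its within-group spread was larger than that of 99.1% of the 1000 genes nearest to it in level. GF replicate 1 was the highest mouse and CONV-R replicate 3 the lowest. Without GF replicate 1 the Log2FC was 1.96 (edgeR adjusted p = 6.24e-05), and without CONV-R replicate 3 it was 2.11 (edgeR adjusted p = 6.02e-05). The highest Kupffer cell marker sum, 929 CPM, was in GF replicate 6, whose *Ednrb* was second among the GF mice, and without that mouse the Log2FC was 2.23 (edgeR adjusted p = 0.000264). GF replicates 1, 2, 4 and 5 had marker sums of 288, 356, 196 and 211 CPM. Of the markers of stellate cells, which also bear endothelin receptors, 3 of 10 had enough counts to be tested and 0 passed. *Lrat* was at 1.89 CPM in GF and 4.91 CPM in CONV-R mice (Log2FC -1.43, edgeR adjusted p = 0.0865). *Pdgfrb* and *Des* had 28 and 40 counts over all 11 libraries, and *Hgf* alone made 235 of the summed 242 CPM in GF mice and 170 of 178 CPM in CONV-R mice. Of the 10 markers of continuous vessel endothelium 2 were called higher in GF mice, *Cd34* (29.1 against 12.6 CPM, edgeR adjusted p = 0.00183) and *Gja4* (179 against 93.3 CPM, edgeR adjusted p = 0.00142). None was called lower, and 3 had a negative Log2FC, *Rspo3* (-0.82), *Wnt9b* (-0.43) and *Plvap* (-0.17). The sum of the 10 was 1123 to 1637 CPM in GF and 1022 to 1384 CPM in CONV-R mice (exact permutation adjusted p = 0.164), and it was highest in GF replicate 1. The part of any of these cell types in the *Ednrb* difference was not tested.

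The genes whose pattern over the 11 libraries was most like that of *Ednrb* were *Cdc42ep4*, a binding partner of the GTPase CDC42, *Rab3a*, a GTPase of vesicle release, and *S1pr1*, a receptor of sphingosine-1-phosphate. Likeness was the root mean square difference of log2 CPM after centring each gene, which was 0.48, 0.49 and 0.50. Their Log2FC values were 1.72, 1.87 and 1.72, which the choice favoured, since centring kept the difference between the groups.

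**Figure D3:**
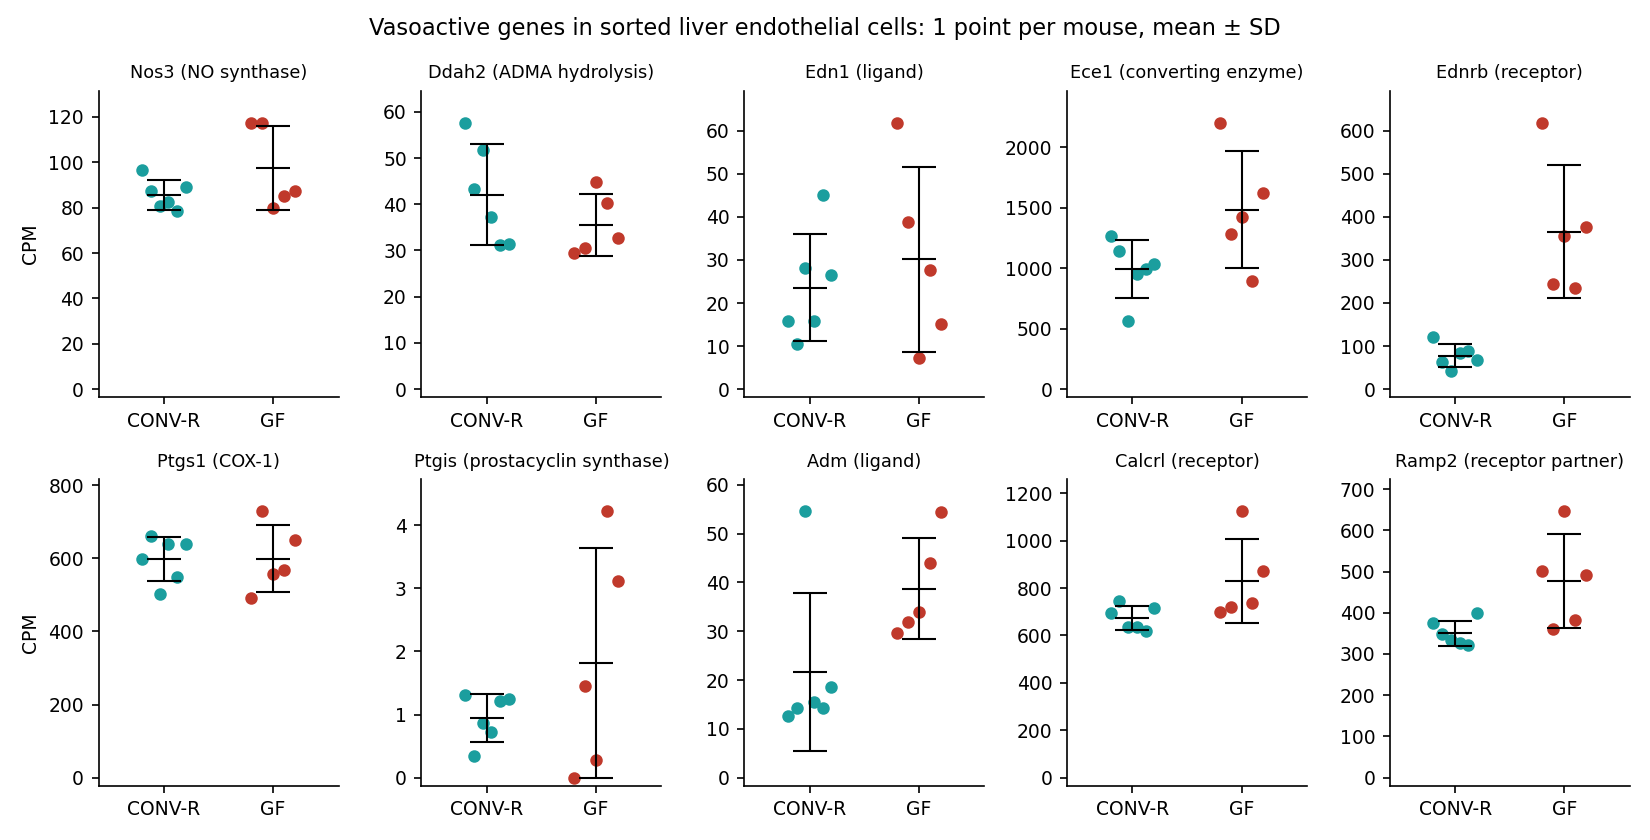
CPM of each gene in each mouse (1 panel per gene, points are mice, lines are group means and bars 1 SD; 6 CONV-R and 5 GF mice; linear axes that include 0). In the *Ednrb* panel the GF mice sit between 234 and 619 CPM, above the CONV-R mice at 41.4 to 121 CPM, while in the *Adm* panel 1 CONV-R mouse at 54.7 CPM sits among the GF mice.

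*Ece1*, whose enzyme cuts big endothelin into its active form (ENSMUSG00000057530, chr4:137862237-137965229, plus strand), was the most abundant member per length of transcript and had a higher mean in GF mice without passing the test. GF replicates 1, 2, 4, 5 and 6 held 2207, 1283, 1428, 891 and 1623 CPM, and CONV-R mice 562 to 1269 CPM (median 1013.) Thus 4 of 5 GF mice lay above every CONV-R mouse and GF replicate 5 lay below the CONV-R median. The means were 1486 ± 484 CPM (SD, n = 5) and 993 ± 240 CPM (SD, n = 6), a Log2FC of 0.58 (SE 0.20, 95% interval 0.12 to 1.04, edgeR adjusted p = 0.0939). Without GF replicate 5 the Log2FC was 0.72 (edgeR adjusted p = 0.0245), and without GF replicate 1 it was 0.40 (edgeR adjusted p = 0.258).

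*Edn1*, the gene of endothelin-1 (ENSMUSG00000021367, chr13:42301476-42307990, plus strand), did not differ between the groups beyond its spread. It was at 61.9, 38.9, 7.22, 27.7 and 15.0 CPM in GF replicates 1, 2, 4, 5 and 6, and at 10.6 to 45.0 CPM in CONV-R mice (median 21.1.) The groups overlapped throughout, and the highest mouse exceeded the lowest 8.57-fold in GF and 4.26-fold in CONV-R. The Log2FC was 0.37 (SE 0.43, 95% interval -0.60 to 1.33, edgeR adjusted p = 0.661), and without GF replicate 1 it was -0.08 (edgeR adjusted p = 0.940). This within-group spread, an SD of 0.97 on the log2 scale, was above that of each of the 1000 genes nearest in level.

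The remaining receptor and ligand genes of the endothelin list had few counts. *Ednra*, the gene of the ETA receptor, had 3 counts over the 5 GF libraries and 25 over the 6 CONV-R libraries, 16 of them in CONV-R replicate 3, without which the CONV-R total was 9. The other ligand genes had 0 and 1 counts for *Edn2* and 2 and 1 for *Edn3*. *Ece2*, another converting enzyme, passed the filter with a Log2FC of 0.86 (edgeR adjusted p = 0.206). Of the 9 genes in this list 4 could be tested, 1 rose, 0 fell, and the median Log2FC was 0.72, a list that holds 3 of the members.

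*Nos3*, the gene of endothelial nitric oxide synthase (ENSMUSG00000028978, chr5:24364810-24384474, plus strand), varied little between CONV-R mice, at 78.4 to 96.4 CPM (median 85.1.) The GF replicates 1, 2, 4, 5 and 6 held 117, 118, 79.9, 85.2 and 87.2 CPM. The first 2 of these lay above every CONV-R mouse and the other 3 within the CONV-R range. The means were 97.4 ± 18.4 CPM (SD, n = 5) and 85.8 ± 6.57 CPM (SD, n = 6), a Log2FC of 0.19 (SE 0.12, 95% interval -0.10 to 0.47, edgeR adjusted p = 0.403). Part of its exon sequence, 294 bases, overlaps *Atg9b* and 1040 bases overlap *Gm15587*, both on the opposite strand. The study ligated adapters to double-stranded cDNA with a DNA library kit, which keeps no record of strand. Reads of the shared bases therefore cannot be assigned to *Nos3* by strand.

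*Ddah2*, an enzyme that breaks down asymmetric dimethylarginine, an inhibitor of nitric oxide synthases (ENSMUSG00000007039, chr17:35059035-35062095, plus strand), was the member with a negative Log2FC. It was at 29.4, 30.6, 44.9, 40.2 and 32.6 CPM in the GF mice and at 31.1 to 57.7 CPM in CONV-R mice (median 40.2.) The values overlapped, and 2 of 5 GF mice lay above the CONV-R median. The Log2FC was -0.24 (SE 0.18, 95% interval -0.65 to 0.16, edgeR adjusted p = 0.450). Its paralogue *Ddah1* had a Log2FC of 0.33 (edgeR adjusted p = 0.161).

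Of the 27 genes of nitric oxide synthesis, its cofactor, its inhibitors and cyclic GMP, 26 were tested, 1 rose and 0 fell (3.85% called), with a median Log2FC of 0.08. The riser was *Cav1*, the coat protein of caveolae, which binds and restrains endothelial nitric oxide synthase. *Cav1* was at 92.4, 180, 143, 193 and 191 CPM in GF replicates 1, 2, 4, 5 and 6 and at 93.0 to 119 CPM in CONV-R mice. GF replicate 1 was thus below all CONV-R mice while the other GF mice were above them. The Log2FC was 0.61 (edgeR adjusted p = 0.0264), and the call was lost in turn without CONV-R replicate 2, 4 or 5 or GF replicate 2, 5 or 6, where the Log2FC was still 0.53 to 0.61 (edgeR adjusted p up to 0.0795). It was also lost with voom of limma (Log2FC 0.55, adjusted p = 0.0501) and with limma on the authors' normalized values (Log2FC 0.49, adjusted p = 0.163). *Nostrin*, which draws the synthase off the membrane, had the highest level per length of this list, 161 CPM per kilobase in GF and 148 in CONV-R mice (Log2FC 0.13, edgeR adjusted p = 0.740). The inducible synthase *Nos2* had 83 counts in all GF and 55 in all CONV-R libraries (edgeR adjusted p = 0.235), and 45 of the 83 were in GF replicate 6, the mouse with the highest Kupffer cell marker sum, without which the GF total was 38, while the CONV-R total was 36 without CONV-R replicate 6.

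*Ptgs1*, the gene of cyclooxygenase-1 (ENSMUSG00000047250, chr2:36230426-36252272, plus strand), had nearly equal means. It was at 493, 730, 557, 567 and 651 CPM in GF replicates 1, 2, 4, 5 and 6, and at 503 to 662 CPM in CONV-R mice (median 618.) The means were 599 ± 92.0 CPM (SD, n = 5) and 598 ± 61.1 CPM (SD, n = 6), and the 95% interval of the Log2FC, -0.26 to 0.26, bounds the difference that these mice allow (edgeR adjusted p = 0.994). *Ptgs2*, the gene of the inducible cyclooxygenase, had 3 counts in all GF and 28 in all CONV-R libraries, 17 without CONV-R replicate 6.

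*Ptgis*, the gene of prostacyclin synthase (ENSMUSG00000017969, chr2:167191805-167240604, minus strand), was the least abundant member, with 0 to 32 counts per library. It was at 0, 1.45, 0.29, 4.22 and 3.11 CPM in the GF mice, and at 0.34 to 1.32 CPM in CONV-R mice (median 1.03.) The value of 0 in GF replicate 1 allows up to 0.195 CPM, the level of 3 counts. The Log2FC of 0.87 (SE 0.75, edgeR adjusted p = 0.528) had an interval from -0.82 to 2.57, which spans both directions, and voom of limma gave -0.76. Its within-group SD, 1.38 on the log2 scale, was above that of 96.2% of the 1000 genes nearest in level, and without GF replicate 5 the Log2FC was 0.27 and without GF replicate 6 it was 0.57 (edgeR adjusted p = 0.871 and 0.750). The prostacyclin receptor gene *Ptgir* had 32 counts over the GF libraries, 18 of them in GF replicate 6 and 14 without it, and 62 over the CONV-R libraries, and was below the filter.

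Among the 20 prostanoid genes 13 were tested, 1 rose and 1 fell (15.4% called), with a median Log2FC of 0.05. *Hpgd*, which inactivates prostaglandins by oxidation, rose from 414 to 558 CPM in CONV-R mice to 771 to 1180 CPM in GF mice. The groups did not overlap, and the Log2FC was 0.97 (SE 0.13, edgeR adjusted p = 0.000178). It was also the most abundant gene of the list per length, at 585 CPM per kilobase in GF and 299 in CONV-R mice. *Tbxas1*, thromboxane synthase, fell from 31.7 to 45.9 CPM in CONV-R mice to 10.7 to 22.7 CPM in GF mice. Its groups did not overlap either, and its Log2FC was -1.09 (SE 0.18, edgeR adjusted p = 0.0014). *Slco2a1*, the prostaglandin transporter, had a Log2FC of 0.02 (edgeR adjusted p = 0.937).

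*Adm*, the gene of adrenomedullin (ENSMUSG00000030790, chr7:110627661-110629820, plus strand), had a higher mean in GF mice, and whether it passed depended on 1 CONV-R mouse and on the method. It was at 29.6, 31.8, 34.03, 43.9 and 54.4 CPM in GF replicates 1, 2, 4, 5 and 6. CONV-R mice ran from 12.7 to 54.7 CPM (median 14.9), and the highest of them, replicate 3, stood far above the next at 18.5 CPM. The means were 38.8 ± 10.3 CPM (SD, n = 5) and 21.7 ± 16.3 CPM (SD, n = 6), a Log2FC of 0.85 (SE 0.33, 95% interval 0.11 to 1.59, edgeR adjusted p = 0.126). Without CONV-R replicate 3, the library that stood apart, the Log2FC was 1.36 (edgeR adjusted p = 0.000237), and the 5 GF mice then all lay above the remaining CONV-R mice. With all 11 mice it passed with voom of limma (1.06, adjusted p = 0.0225) and with edgeR without a filter on low counts (0.84, adjusted p = 0.0218), and it did not with DESeq2 (0.84, adjusted p = 0.203).

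*Calcrl* and *Ramp2*, whose products together form the adrenomedullin receptor, both had higher means in GF mice and neither passed the test. *Calcrl* (ENSMUSG00000059588, chr2:84330626-84425411, minus strand) was at 698, 719, 1125, 735 and 873 CPM in GF replicates 1, 2, 4, 5 and 6, and at 619 to 745 CPM in CONV-R mice (median 666.) Its Log2FC was 0.30 (SE 0.12, 95% interval 0.02 to 0.58, edgeR adjusted p = 0.155), and without GF replicate 4 it was 0.16 (edgeR adjusted p = 0.398). *Ramp2* (ENSMUSG00000001240, chr11:101246028-101259546, plus strand) was at 500, 361, 647, 382 and 491 CPM in the GF mice and at 322 to 398 CPM in CONV-R mice (median 341.) All 5 GF mice lay above the CONV-R median of both genes, and GF replicate 4 was the highest for both. The *Ramp2* Log2FC was 0.44 (SE 0.13, 95% interval 0.14 to 0.75, edgeR adjusted p = 0.0539). It passed with DESeq2 (adjusted p = 0.0340) and with edgeR when GF replicate 2 (0.53, adjusted p = 0.0266) or GF replicate 5 (0.51, adjusted p = 0.0259) was left out. Without GF replicate 4, the highest mouse, it was 0.31 (edgeR adjusted p = 0.150), and limma on the authors' normalized values gave 0.37 (adjusted p = 0.217). The gene shares 1103 exon bases with *Vps25* on the same strand, which the counting could divide.

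In the adrenomedullin and CGRP list 8 of 13 genes were tested, 0 passed in either direction, and all 8 had a positive Log2FC (median 0.36.) *Gpr182*, a receptor of sinusoidal endothelium that scavenges chemokines, had the highest level per length, 564 CPM per kilobase in GF and 449 in CONV-R mice (Log2FC 0.33, edgeR adjusted p = 0.326). *Ramp3*, which also pairs with *Calcrl*, had a Log2FC of 0.05 (edgeR adjusted p = 0.947), and *Ramp1*, which forms the CGRP receptor, had 8 counts in all GF and 0 in all CONV-R libraries, with 6 of the 8 in GF replicate 2 and 2 without it.

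The list of other vasoactive peptides had 7 of 25 genes tested, with 1 higher and 0 lower. *Ace*, the enzyme that makes angiotensin II, was at 68.5, 28.5, 14.3, 20.1 and 19.4 CPM in GF replicates 1, 2, 4, 5 and 6 and at 6.37 to 16.4 CPM in CONV-R mice (Log2FC 1.44, edgeR adjusted p = 0.0194). This call rested on GF replicate 1, without which the Log2FC was 0.88 (edgeR adjusted p = 0.0705), and it was lost with limma on the authors' normalized values (Log2FC 1.03, adjusted p = 0.191). *Enpep*, an aminopeptidase that degrades angiotensin II, was the most abundant of the list per length, at 84.5 CPM per kilobase in GF and 96.1 in CONV-R mice (edgeR adjusted p = 0.533). Over the 58 tested genes of all lists 4 rose and 1 fell (8.62% called), and over the 48 that are not among the 10 members 3 rose and 1 fell (8.33%), near the 7.48% of all tested genes. In the plot of all listed genes *Ednrb* has the highest Log2FC and *Tbxas1* is the lower gene that passed.

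**Figure D4:**
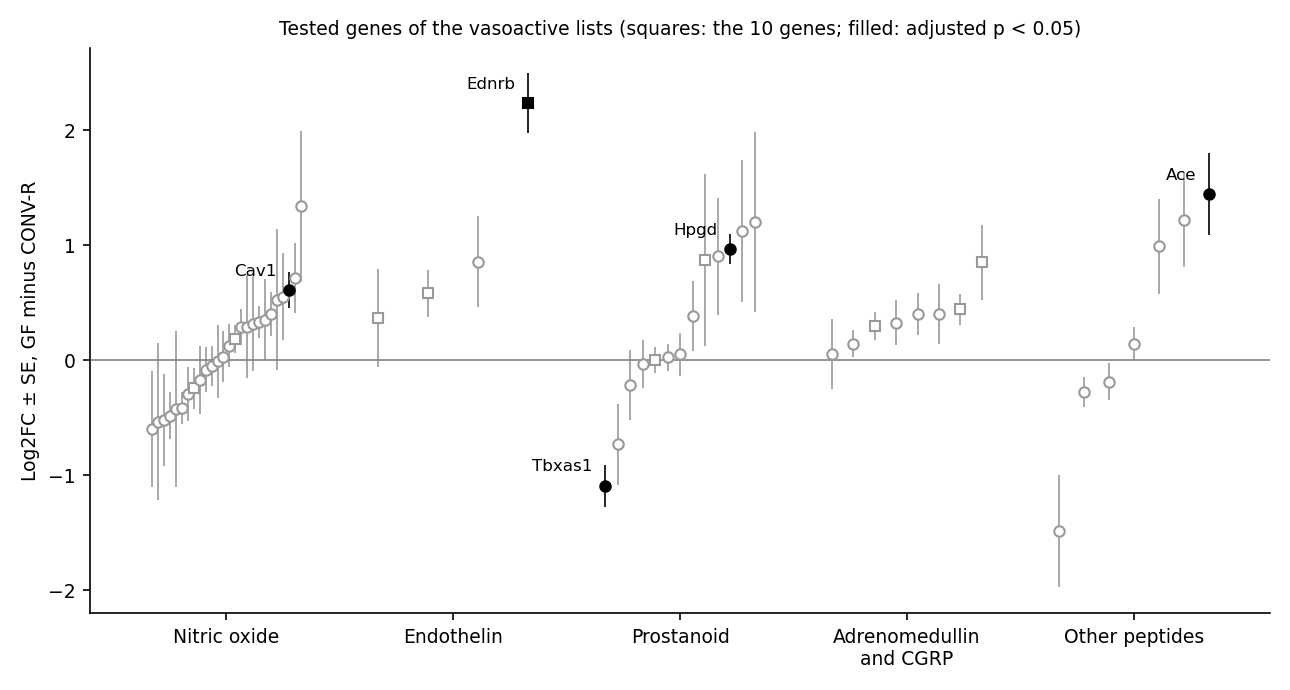
Log2FC (GF over CONV-R, log2 scale) of the 58 tested genes of the vasoactive lists, 1 point per gene with bars of 1 SE, grouped by list. Squares are the 10 members and filled symbols passed an edgeR adjusted p of 0.05, which are *Ednrb*, *Hpgd*, *Cav1* and *Ace* above 0 and *Tbxas1* below it.

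Per kilobase of exon, *Ece1* had the highest level in both groups, 187 ± 45.3 CPM per kilobase in CONV-R mice (SD, n = 6) and 280 ± 91.3 in GF mice (SD, n = 5). *Ptgs1*, *Calcrl* and *Ramp2* followed in CONV-R mice at 154 ± 15.7, 138 ± 10.6 and 106 ± 9.14. *Calcrl* lay above *Ramp2* in 6 of 6 CONV-R mice, while *Ece1* over *Ptgs1* and *Ptgs1* over *Calcrl* held in 5 of 6 each. The lengths include exon bases shared with other genes, whose reads the counting could drop or divide. These are 1103 of 3301 bases for *Ramp2*, and 1040 and 294 of 4132 for *Nos3*. The places of *Ramp2* and *Nos3* in the order, in either group, depend on how such reads were counted. The mean of *Ramp2* was 4.02 times that of *Ddah2*, the next gene, at 26.4 ± 6.88, and *Ramp2* was the higher in 6 of 6 CONV-R mice. *Nos3* at 20.8 ± 1.59, *Ednrb* at 18.2 ± 6.32, *Adm* at 13.4 ± 10.1 and *Edn1* at 11.04 ± 5.84 came next, each lower than the gene before it in 4 or 5 of the 6 mice, and *Ptgis* was last at 0.369 ± 0.147. In GF mice the order was *Calcrl* at 170 ± 36.6, *Ptgs1* at 154 ± 23.7 and *Ramp2* at 144 ± 34.6, which were within their spread of one another, then *Ednrb* at 85.7 ± 36.4. *Ednrb* was thus at rank 7 of 10 in CONV-R and rank 5 in GF mice, where it exceeded *Adm*, the next gene, 3.58-fold and in 5 of 5 mice. *Adm* at 23.9 ± 6.38, *Nos3* at 23.6 ± 4.46 and *Ddah2* at 22.3 ± 4.21 were not separated in GF mice. *Edn1* at 14.1 ± 10.04 and *Ptgis* at 0.707 ± 0.709 were the lowest.

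**Figure D5:**
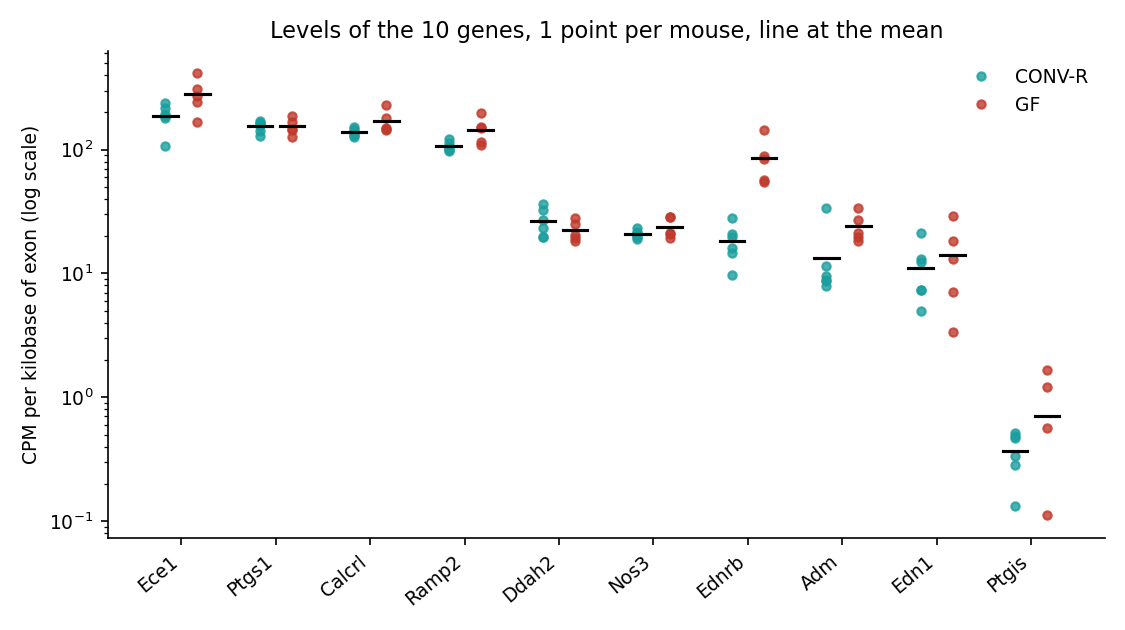
CPM per kilobase of exon of each gene in each mouse (log axis, genes in order of the CONV-R mean, points are mice of the 2 groups, lines are means), with the *Ptgis* value of 0 in GF replicate 1 left off the log axis. *Ednrb* moves from 18.2 to 85.7 CPM per kilobase between the groups, while *Ece1* stays the most abundant gene in both.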

How the data were processed

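The libraries, 1 per mouse, were made from sorted liver ECs (6 CONV-R mice, 5 GF mice), and groups were taken from the sample labels. The authors deposited raw counts per gene, made by trimming with Trim Galore, mapping with STAR to GRCm38 (mm10) and counting with featureCounts. They left out 1 GF library for its fewer mapped reads. They also deposited log2 values normalized with the DESeq method, used here for 1 alternative. In these a count of 0 stands at 2.59 (*Ptgis* in GF replicate 1), so they are not plain log2 counts. A Log2FC taken from them can be smaller than one from the counts. The annotation release and strand setting of the counting are not given in the sources used here.

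Counts were analysed in R 4.3.3 with edgeR 4.0.16: filterByExpr, TMM scaling, the quasi-likelihood test with group alone, and Benjamini-Hochberg adjustment over 12905 genes. SEs were derived from the fitted Log2FC and its F statistic, and intervals are approximate. The study's methods name DESeq2, run here as an alternative (version 1.42.0) beside voom of limma 3.58.1. Log2 CPM used a prior count of 2. Values that stand alone, such as marker sums, were tested by two-sided exact permutation of the mice over 462 splits. Gene positions came from GENCODE M21 (GRCm38) and promoter windows from RefSeq (GRCm38.p6). Figures were made in Python 3.11.15 (matplotlib 3.10.9).

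The 10 genes and the gene lists were chosen with earlier results of these data known. All 10 genes are named whatever their values, and of the lists every gene with an adjusted p under 0.05 and the gene of highest level per length. Genes given beside these by role were chosen after their values were seen. *Gucy1a1* and *Gucy1b1* were read under the older names in the table, and *Uts2r* was not found under its name. The 11 libraries held 7242717 to 16164588 counts, so each value is limited by 5 or 6 mice and, for the weakest genes, by counting error, which is all that the limit set by a count of 0 covers. Each library is a separate mouse, and the closest pair of one group differed by far more than counting error (chi-square of 8.84 per degree of freedom).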

Additional observations from a re-analysis of the deposited data

Results flagged for a closer look

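In the adrenomedullin pathway, *Adm* in CONV-R replicate 3 was at 54.7 CPM, where the other 5 CONV-R mice lay between 12.7 and 18.5 CPM. The summed Kupffer cell markers of GF replicate 6 reached 929 CPM, against 196 to 356 CPM in the other GF mice. The summed platelet markers of CONV-R replicate 3 were at 29.4 CPM, against 20.1 to 23.5 CPM in the other CONV-R mice. Each of these mice lay far from the rest of its group by Dixon's test. Of 40 groups of values examined 3 held such a mouse, and chance gives about 1 in 20.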

How the results depend on the processing

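*Ednrb* kept its direction and its call under all 11 alternatives, with a Log2FC of 1.88 to 2.24 (adjusted p 5.6e-13 to 0.0105), and without each mouse in turn (1.96 to 2.41, adjusted p 3.89e-05 to 0.000264). Over all genes, limma on the authors' normalized values called 291 higher and 131 lower, DESeq2 929 higher and 598 lower, and leaving out 1 mouse 413 to 779 higher and 206 to 481 lower. Among the members, 2 were called higher with DESeq2, voom and drawn-down counts, 3 without a filter on low counts, and 1 to 3 without 1 mouse. Beside these, voom called 596 of 12905 genes higher, drawn-down counts 604 of 12155 and edgeR without the filter 725 of 25329. The lists had 7 higher genes without the filter and 2 on the authors' values, 4 lower genes with DESeq2, and 1 to 3 lower without 1 mouse. *Ece1* passed without the filter (0.56), *Adm* with voom (1.06) and without the filter (0.84), and *Ramp2* with DESeq2 (0.44) and drawn-down counts (0.45). *Ptgs1*, near 0, turned negative with upper quartile scaling (-0.032), voom (-0.0078), no filter (-0.023) and at least 10 counts in every library (-0.0011), and *Ptgis* with voom (-0.76). Without 1 mouse, Log2FC ran from -0.085 to 0.65 for *Edn1*, 0.40 to 0.72 for *Ece1*, -0.077 to 0.066 for *Ptgs1*, 0.70 to 1.36 for *Adm*, 0.31 to 0.53 for *Ramp2*, 0.16 to 0.36 for *Calcrl*, 0.11 to 0.25 for *Nos3*, -0.34 to -0.13 for *Ddah2* and 0.27 to 1.23 for *Ptgis*, and the GF minus CONV-R difference in summed CPM from 130 to 314 for Kupffer cell, -0.68 to 10.9 for hepatocyte and -6.42 to -4.56 for lymphocyte markers. The causes of these changes were not tested. *Ptgis* had no value with drawn-down counts and none at 10 counts in every library.

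Same-numbered mice of the 2 groups share only a number: 1 of 5 pairs deviated together with a correlation over 0.1 (-0.01 to 0.20), and 2 of 5 libraries matched best with their own number. A replicate block needs 10 libraries and leaves out CONV-R replicate 3. With the block, 2 members and 7 listed genes were called higher, beside 688 of all 12807 tested genes. There *Adm* had 1.34 and *Ptgs1* -0.054. The same 10 libraries without the block, an alternative chosen after seeing the data, gave 2 members and 595 of 12807 genes called higher. It gave *Adm* 1.36 and *Ptgs1* -0.044. Counting error limits the listed genes with a few counts over all libraries.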
